A study of Rattus norvegicus with 12 samples.

Results

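The response of cultured fetal bone to dexamethasone and LiCl given together was read from 6 RNA-seq libraries, 3 from metatarsals cultured with both drugs (dexamethasone + LiCl) and 3 from control metatarsals, out of 12 libraries in all. The members described are all genes that reached 60 counts in 2 or more of 12 libraries, 12602 of 30045 gene symbols. Metatarsals of Sprague Dawley rat fetuses (embryonic day 19) were kept in culture for 72 h under 4 conditions. The control medium held only the ethanol vehicle, and the others held 1 µM dexamethasone, 10 mM LiCl with the ethanol vehicle, or 1 µM dexamethasone with 10 mM LiCl. No other salt was listed for the media without LiCl, so the effect of lithium and that of added salt cannot be told apart. Each library came from a pool of bones, with n = 3 biological replicates per condition throughout, and errors are the SD between libraries. Total counts were 9055581 to 17872189 with both drugs and 10761816 to 21953446 in control, and the libraries with dexamethasone alone and with LiCl alone lay within 9263078 to 20644093.

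Fetal metatarsals are cartilage rods whose chondrocytes divide, enlarge and lay down matrix, wrapped in a perichondrium, with a bone collar, vessels and remnants of muscle and tendon attached. Dexamethasone is a synthetic glucocorticoid that binds the glucocorticoid receptor, a transcription factor that enters the nucleus and raises or lowers target genes. Lithium inhibits glycogen synthase kinase 3, which otherwise marks β-catenin for destruction, and so can raise target genes of Wnt signaling. It also inhibits phosphatases of inositol and nucleotide metabolism.

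The unit of levels is CPM, the gene count divided by the TMM-scaled library total in megareads. Differences are log2 fold changes, each with a standard error (SE) and a p from the quasi-likelihood test of edgeR, adjusted by Benjamini-Hochberg over all 12602 genes. A gene was called when its adjusted p was under 0.05 and its fold above 2 or below 0.5. Against control, both drugs together gave a call for 551 genes (4.37% of those tested), 286 of them up-regulated (2.27%) and 265 down-regulated (2.10%). A called gene was taken to be beyond either drug alone when it also differed in that direction from dexamethasone alone and from LiCl alone at an adjusted p under 0.05. These were 88 genes, 41 higher (0.325% of genes tested) and 47 lower (0.373%). In a fit that also held the replicate number (replicate block), 123 genes were beyond either drug, 62 of them in the higher direction. The 3 comparisons share the libraries with both drugs, so these values are not independent of each other.

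Skeletal muscle genes made up 8 of the 41 higher genes beyond either drug alone. Of 20 listed muscle markers 12 passed the count filter, and 10 of these passed an adjusted p of 0.05 as higher than control and 1 as lower, against 10.8% of all genes higher and 11.8% lower at that threshold. Its median log2 fold change against control was 2.49, beside 0.65 with dexamethasone alone, 1.01 with LiCl alone and 0.01 over all genes with both drugs. The summed level of all 20 listed markers was 58.2 to 67.2 CPM in the control libraries, 95.9 to 138 CPM with dexamethasone, 107 to 130 CPM with LiCl and 243 to 302 CPM with both. In pooled bones more muscle cells and more RNA per cell cannot be told apart, for these or any other genes.

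Promoters of muscle genes beyond either drug alone are shown first. The RefSeq tables (rat assembly GRCr8) held a window of 250 bases before to 50 bases after the start for 10 of the 12 muscle markers. The CArG box, the site bound by serum response factor in muscle and cytoskeletal promoters, was searched on both strands after the values had been seen. It occurred in 3 of the 10 windows (30%) and in 451 of all 27457 windows (1.64%). Its bases are in capitals in these 3 windows, which belong to Acta1 (chr19:68784145-68784444, minus strand), Actc1 (chr3:121271778-121272077, minus strand) and Ldb3 (chr16:9924630-9924929, minus strand), each printed 5′ to 3′.
Acta1: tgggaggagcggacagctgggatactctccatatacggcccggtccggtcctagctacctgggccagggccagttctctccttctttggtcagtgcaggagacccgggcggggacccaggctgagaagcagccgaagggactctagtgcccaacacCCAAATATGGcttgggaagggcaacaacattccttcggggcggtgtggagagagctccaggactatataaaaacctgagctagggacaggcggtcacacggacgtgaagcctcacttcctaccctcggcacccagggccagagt
Actc1: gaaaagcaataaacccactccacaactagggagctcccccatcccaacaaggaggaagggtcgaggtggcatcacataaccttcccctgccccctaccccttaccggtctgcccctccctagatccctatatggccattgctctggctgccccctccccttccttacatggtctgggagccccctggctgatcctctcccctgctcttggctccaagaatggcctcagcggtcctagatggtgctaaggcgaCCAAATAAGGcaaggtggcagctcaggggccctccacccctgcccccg
Ldb3: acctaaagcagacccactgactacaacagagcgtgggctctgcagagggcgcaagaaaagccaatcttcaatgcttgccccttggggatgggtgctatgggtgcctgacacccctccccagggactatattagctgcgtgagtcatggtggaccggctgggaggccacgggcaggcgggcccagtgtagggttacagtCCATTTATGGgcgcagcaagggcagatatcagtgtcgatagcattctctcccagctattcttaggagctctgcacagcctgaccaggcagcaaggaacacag
The box began 94 bases before the start in Acta1 (offset -94), 52 bases before it in Ldb3 (offset -52) and 2 bases after it in Actc1. The reference is a Brown Norway genome, not the Sprague Dawley strain of the cultures, and a match is a description of these letters, not of binding.

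Acta1 encodes skeletal α-actin, the actin of the muscle thin filament. Its level was 1.26, 0.65 and 0.353 CPM in the control libraries, 1.35, 1.68 and 1.46 CPM with dexamethasone, 8.86, 5.87 and 6.78 CPM with LiCl and 19.9, 18.3 and 14.4 CPM with both drugs. All 3 libraries with both drugs lay above the other 9. The log2 fold change was 4.46 (SE 0.30, adjusted p = 5.3e-08) against control, 3.53 (SE 0.30, adjusted p = 4.8e-06) against dexamethasone and 1.29 (SE 0.23, adjusted p = 0.00196) against LiCl.
Myl1, a light chain of fast myosin, stood at 0.765, 0.743 and 0.756 CPM in control and at 0.724, 1.09 and 0.448 CPM with dexamethasone. With LiCl it was at 3.93, 3.57 and 4.31 CPM, and with both drugs at 11.9, 9.95 and 8.70 CPM. Dexamethasone alone left Myl1 0.05 from control on the log2 scale (SE 0.35, adjusted p = 0.953), while adding it to LiCl gave 1.36 (SE 0.19, adjusted p = 2.5e-04). The interaction, the part of the change with both drugs that the sum of the single-drug changes does not give, was 1.31 for Myl1 (SE 0.40, adjusted p = 0.734) and did not pass.
Tnni1, the troponin I of slow fibres, showed another order, with dexamethasone as the stronger single drug. It measured 1.17, 1.95 and 1.46 CPM in control, 2.86, 3.67 and 4.60 CPM with LiCl, 16.6, 26.0 and 12.3 CPM with dexamethasone and 41.9, 66.3 and 49.8 CPM with both drugs. Again no library with both drugs overlapped the other conditions, and the change against control was 5.17 on the log2 scale (SE 0.29, adjusted p = 1.1e-08).
The embryonic myosin heavy chain gene Myh3 was at 1.61 ± 0.717 CPM in control (SD, n = 3), 3.24 ± 1.97 with dexamethasone, 11.7 ± 3.34 with LiCl and 32.6 ± 4.62 CPM with both. Actc1, the cardiac α-actin that fetal skeletal muscle also makes, followed that order with 1.38 ± 0.833, 1.85 ± 0.364, 7.97 ± 2.89 and 17.7 ± 3.07 CPM. Ldb3, which anchors proteins at the Z-disc of the sarcomere, was at 3.28 ± 0.590 CPM in control, 14.8 ± 1.23 with dexamethasone, 5.02 ± 0.384 with LiCl and 20.8 ± 1.10 CPM with both. Among these 6 genes the actin and myosin genes were nearer their LiCl level and Tnni1 and Ldb3 nearer their dexamethasone level. Leaving out each of the 12 libraries in turn, Acta1, Myh3, Myl1 and Tnni1 stayed beyond either drug in 12 of 12 fits, Actc1 in 8 and Ldb3 in 7.
Of the myogenic transcription factors listed, 5 were under the count filter and were not tested. Myog (myogenin) was at 0.945, 1.39 and 0.101 CPM in control, 0.931, 0.336 and 0.336 with dexamethasone, 2.43, 2.25 and 1.26 with LiCl and 4.59, 2.83 and 2.28 CPM with both drugs, from 2 to 42 counts a library in the control and dexamethasone + LiCl groups. All 3 libraries with both drugs lay above the control and dexamethasone libraries, and they overlapped those with LiCl. Myod1 was at 0.180, 0.186 and 0 CPM in control and 0.437, 0.730 and 0.409 CPM with both (at most 8 counts a library), and Pax7, a marker of muscle stem cells, had 0 counts in all 12 libraries. Among the 8 muscle markers under the filter, the creatine kinase gene Ckm was at 0.225, 0.186 and 0.151 CPM in control and 1.86, 3.10 and 1.75 CPM with both (5, 2 and 3 against 17, 34 and 30 counts), while myoglobin (Mb) had 0 counts in the libraries of both groups. Mef2a, a tested member, differed from control by -0.19 on the log2 scale (SE 0.08, adjusted p = 0.0896). The part of attached muscle tissue in these differences was not tested.

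**Figure D1:**
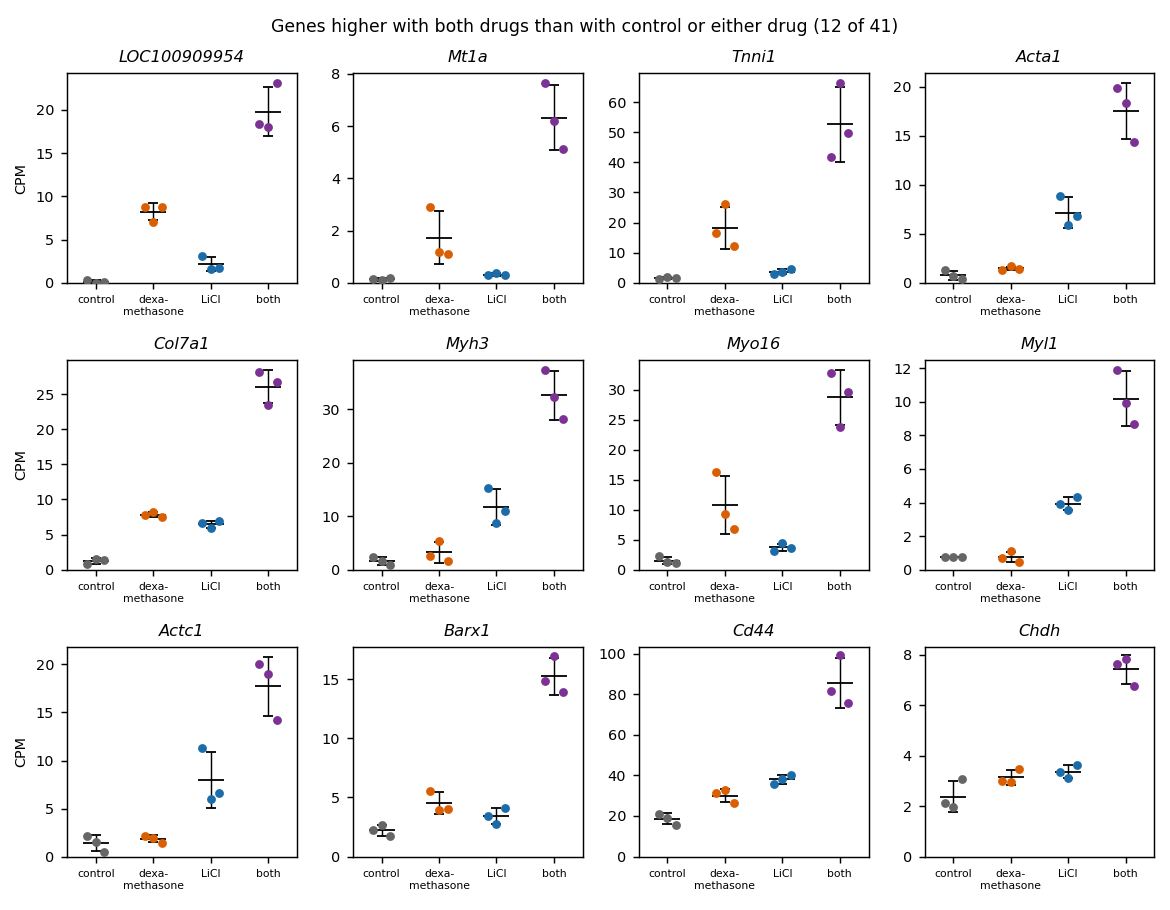
Levels in CPM (linear axes from 0, one scale per gene) of the 12 genes that stood farthest above both single drugs, in control, dexamethasone, LiCl and both drugs, with a point for each of 3 libraries and the mean with its SD. In Acta1 the mean is 17.5 CPM with both drugs and 7.17, 1.49 and 0.754 CPM with LiCl, dexamethasone and control.

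The genes described next were outside the muscle list. Cd44, the cell surface receptor for hyaluronan and a known Wnt target, was at 21.0, 19.0 and 15.6 CPM in control, 31.3, 32.7 and 26.2 with dexamethasone, 35.9, 38.4 and 40.1 with LiCl and 81.9, 99.2 and 75.5 CPM with both drugs. Each drug alone raised it and the libraries with both stood apart from all others, 4.61-fold above control. On the log2 scale it differed by 2.20 (SE 0.13, adjusted p = 1.2e-08) from control, by 1.50 (SE 0.13, adjusted p = 4.8e-06) from dexamethasone and by 1.16 (SE 0.12, adjusted p = 1.1e-05) from LiCl.
Col7a1 encodes the collagen of anchoring fibrils. It was at 0.810, 1.49 and 1.41 CPM in control, 7.76, 8.23 and 7.51 with dexamethasone, 6.58, 5.93 and 6.93 with LiCl and 28.1, 23.5 and 26.7 CPM with both, 4.45 above control on the log2 scale (SE 0.19, adjusted p = 6.7e-10). The single drugs gave 2.72 (SE 0.20) and 2.44 (SE 0.20), so their sum of 5.15 lay above the change with both.
Barx1, a homeobox transcription factor of mesenchyme, stood at 2.21, 2.69 and 1.76 CPM in control and at 14.9, 17.0 and 13.9 CPM with both drugs. With dexamethasone it was at 5.59, 3.95 and 4.04 CPM and with LiCl at 3.43, 2.78 and 4.07 CPM. Here the sum of the single-drug changes was 1.71 and the change with both was 2.81 (SE 0.21, adjusted p = 1.3e-07), with an interaction of 1.09 (SE 0.30, adjusted p = 0.533).
Chdh, the mitochondrial enzyme that oxidizes choline toward betaine, is an example in which neither single drug passed. Control libraries were at 2.12, 1.95 and 3.07 CPM, dexamethasone at 3.00, 2.94 and 3.47, LiCl at 3.36, 3.09 and 3.63, and both drugs at 7.65, 7.85 and 6.77 CPM. Dexamethasone alone gave 0.37 (SE 0.22, adjusted p = 0.324), LiCl alone 0.48 (SE 0.20, adjusted p = 0.149) and both drugs 1.61 (SE 0.20, adjusted p = 2.5e-05) on the log2 scale.
Mt1a, a metallothionein that binds zinc and copper and a known glucocorticoid target, was at 0.135, 0.0928 and 0.202 CPM in control, 2.90, 1.18 and 1.12 with dexamethasone, 0.286, 0.367 and 0.291 with LiCl and 7.65, 6.20 and 5.14 CPM with both. It was the one member of the list of 23 glucocorticoid receptor targets that was beyond either drug, 3.63-fold above dexamethasone alone (log2 1.86, SE 0.31, adjusted p = 0.0014). The unconventional myosin gene Myo16 was at 1.52 ± 0.633 CPM in control, 10.8 ± 4.88 with dexamethasone, 3.71 ± 0.640 with LiCl and 28.7 ± 4.60 CPM with both. LOC100909954, for which no role is given here, rose from 0.140 ± 0.135 to 19.8 ± 2.84 CPM, with 8.20 ± 0.992 CPM with dexamethasone and 2.17 ± 0.845 CPM with LiCl.
Some abundant transcripts were among the 41 with smaller folds. Mgp, the matrix Gla protein that keeps cartilage from calcifying, was at 493, 563 and 495 CPM in control, 1014, 998 and 911 with dexamethasone, 1284, 1029 and 1008 with LiCl and 1703, 1489 and 1559 CPM with both, 3.06-fold above control. Per2, a repressor of the circadian clock, rose from 33.1 ± 3.00 to 71.3 ± 5.65 CPM, with 54.3 ± 0.444 and 47.8 ± 4.62 CPM under dexamethasone and LiCl. Cd44, Col7a1, Barx1, Chdh, Mt1a, Myo16, LOC100909954 and Mgp stayed beyond either drug in 12 of 12 fits with 1 library left out, and Per2 in 9. Of the 41 higher genes, 22 did so.

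The genes that fell beyond either drug alone numbered 47. Scube2, a secreted protein that helps release Hedgehog ligands, was at 38.2, 31.8 and 33.1 CPM in control, 18.8, 18.4 and 17.8 with dexamethasone, 14.2, 15.1 and 14.5 with LiCl and 10.7, 7.12 and 6.77 CPM with both drugs. Both single drugs lowered it and the 3 libraries with both drugs lay below all others, by -2.10 on the log2 scale against control (SE 0.14, adjusted p = 5.2e-08).
Sfrp2, a secreted antagonist of Wnt proteins, fell from 93.1, 100.5 and 86.6 CPM in control to 24.8, 24.1 and 24.2 CPM with both, with 55.5, 48.7 and 50.5 CPM under dexamethasone and 38.5, 38.7 and 37.2 CPM under LiCl. Its log2 fold change was -1.94 against control (SE 0.08, adjusted p = 8.0e-10) and -0.65 against LiCl alone (SE 0.08, adjusted p = 1.1e-04). Matn4, the cartilage protein matrilin, stood at 224, 296 and 262 CPM in control, 157, 143 and 177 with dexamethasone, 128, 138 and 168 with LiCl and 85.7, 86.0 and 92.7 CPM with both. For Sfrp2 and Matn4 too, each library with both drugs was below every other.
Mmp11, a stromelysin-like matrix protease, was at 23.1 ± 3.26 CPM in control, 11.9 ± 1.53 with dexamethasone, 10.8 ± 1.03 with LiCl and 6.41 ± 0.418 CPM with both. Its promoter window is printed because it held the hexamer TGTTCT, the core of the glucocorticoid response element, on either strand (in capitals, reading AGAACA here, 108 bases before the start, offset -108). It lies at chr20:12730034-12730333 of GRCr8, plus strand.
Mmp11: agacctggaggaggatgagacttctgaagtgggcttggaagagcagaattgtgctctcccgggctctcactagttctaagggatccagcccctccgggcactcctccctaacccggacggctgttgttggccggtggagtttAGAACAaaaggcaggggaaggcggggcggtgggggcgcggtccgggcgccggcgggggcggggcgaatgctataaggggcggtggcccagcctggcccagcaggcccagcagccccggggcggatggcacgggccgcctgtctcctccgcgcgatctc
The hexamer occurred in 5509 of all 27457 windows (20.1%), in 1133 of the 9489 windows of genes tested (11.9%, with a window for 75.3% of those genes), in 4 of the 33 windows found for the 41 higher genes (12.1%) and in 1 of the 20 found for the 23 glucocorticoid receptor targets (5%). The whole element (AGAACA, any 3 bases, then TGTTCT) was in none of these 33 or 20 windows and in 2 of all windows. The TCF/LEF site ATCAAAG of Wnt targets was in 1 of the 33 (3.03%), in 2.27% of the windows of genes tested and in 3.62% of all. For the 47 lower genes, all called genes and the Wnt targets, fewer than 80% had a window, so no shares are given for them. By count, the hexamer was in 3 of the 36 windows found for the 47 lower genes. ATCAAAG was in 3 of the 10 windows found for the 16 Wnt targets tested. The shares over genes tested also rest on fewer than 80% with a window.
Vstm2b, a membrane protein with an immunoglobulin-like domain, dropped from 13.6, 10.4 and 11.4 CPM in control to 1.64, 1.28 and 2.92 CPM with both, while dexamethasone gave 8.59, 5.54 and 9.53 CPM and LiCl 5.79, 4.77 and 6.39 CPM. The change was -2.53 on the log2 scale (SE 0.27, adjusted p = 6.3e-06). Col6a5, a chain of collagen VI, was 13.9-fold below control, the largest fold among the 47. That fold rests on few counts with both drugs (0.656, 0.365 and 0.175 CPM). Its level was 4.95 ± 1.34 CPM in control, 1.51 ± 0.344 with dexamethasone, 1.94 ± 0.487 with LiCl and 0.399 ± 0.242 CPM with both. Fam198a was at 56.7 ± 2.44, 32.7 ± 3.90, 31.3 ± 2.51 and 16.0 ± 0.625 CPM in that order of conditions.
Slitrk2 and Slitrk4, which encode surface proteins of synapses, were at 8.44 ± 0.843 and 7.35 ± 0.576 CPM in control and at 1.57 ± 0.650 and 2.74 ± 0.253 CPM with both. Cdh10, a cadherin, was at 5.25 ± 0.771 CPM in control and at 1.49 ± 0.185 CPM with both, and Fgf12, an intracellular relative of the fibroblast growth factors, at 4.64 ± 0.519 and 1.09 ± 0.346 CPM. Sez6l and Lypd1 were at 23.7 ± 1.24 and 11.3 ± 0.716 CPM in control and at 8.05 ± 2.14 and 3.20 ± 0.973 CPM with both.
The protease gene Adamts17 was at 74.5 ± 6.58 CPM in control and 24.5 ± 3.02 CPM with both, the potassium channel subunit gene Kcne2 at 3.90 ± 0.503 and 1.19 ± 0.402 CPM, and the water channel gene Aqp1 at 413 ± 68.2 and 154 ± 4.80 CPM. Hs6st2, which adds sulfate to heparan sulfate chains, was at 52.3 ± 2.26 CPM in control, 30.0 ± 2.25 with dexamethasone, 21.4 ± 1.37 with LiCl and 17.0 ± 0.838 CPM with both, so that its further drop from LiCl was -0.32 (SE 0.09, adjusted p = 0.0499). Of the 47 lower genes 17 stayed beyond either drug in 12 of 12 fits with 1 library left out, among them Scube2, Sfrp2, Matn4, Mmp11, Vstm2b and Fam198a. Fgf12 did so in 4 fits, Kcne2 and Lypd1 in 6, Aqp1 in 7 and Hs6st2 in 2. The number of lower genes was 29 without dexamethasone + LiCl replicate 1 and 29 without dexamethasone replicate 3.

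**Figure D2:**
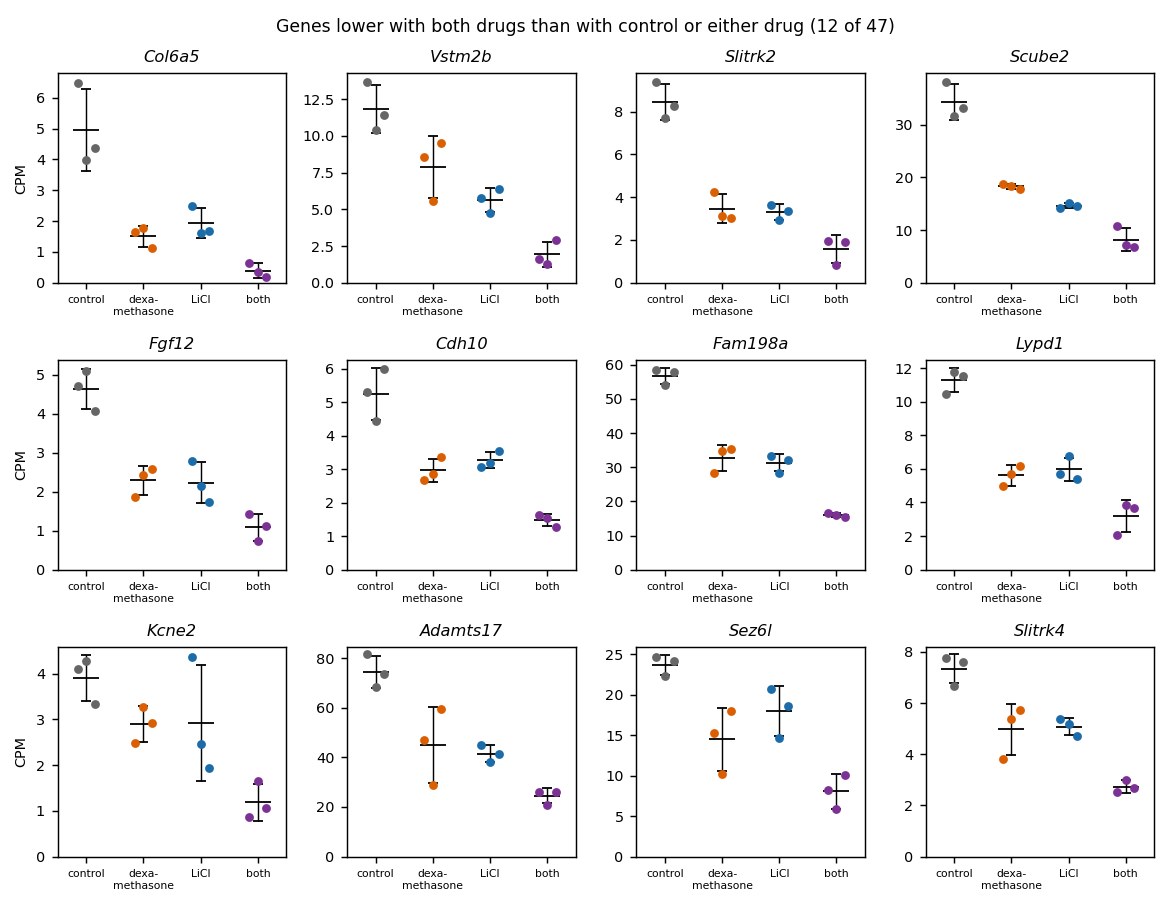
Levels in CPM (linear axes from 0, one scale per gene) of the 12 genes that stood farthest below both single drugs, in control, dexamethasone, LiCl and both drugs, with a point for each of 3 libraries and the mean with its SD. In Scube2 the mean falls from 34.3 CPM in control to 18.3 with dexamethasone, 14.6 with LiCl and 8.20 CPM with both.

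The changes beyond either drug alone were set against the sum of the single-drug changes on the log2 scale. Over the 41 higher genes the median log2 fold change was 2.07 with both drugs, 0.72 with dexamethasone and 0.70 with LiCl (0.695), and the median of the summed single-drug changes was 1.71. Over the 47 lower genes it was -1.51 with both, -0.77 with dexamethasone and -0.72 with LiCl, with a median sum of -1.53. Both single drugs passed an adjusted p of 0.05 in the direction of the pair for 22 of the 41 higher and 36 of the 47 lower genes. Neither did for 5 and 4. The change was over 2-fold from each single drug for 15 higher and 6 lower genes. The median interaction was 0.235 over the higher and -0.026 over the lower genes, with an unadjusted p under 0.05 for 14 and 5 of them. Over all 12602 genes, 705 had an unadjusted interaction p under 0.05. The 88 genes were chosen by their values with both drugs, which also enter the interaction. The medians and the numbers with a small p are therefore a description with no test.

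**Figure D3:**
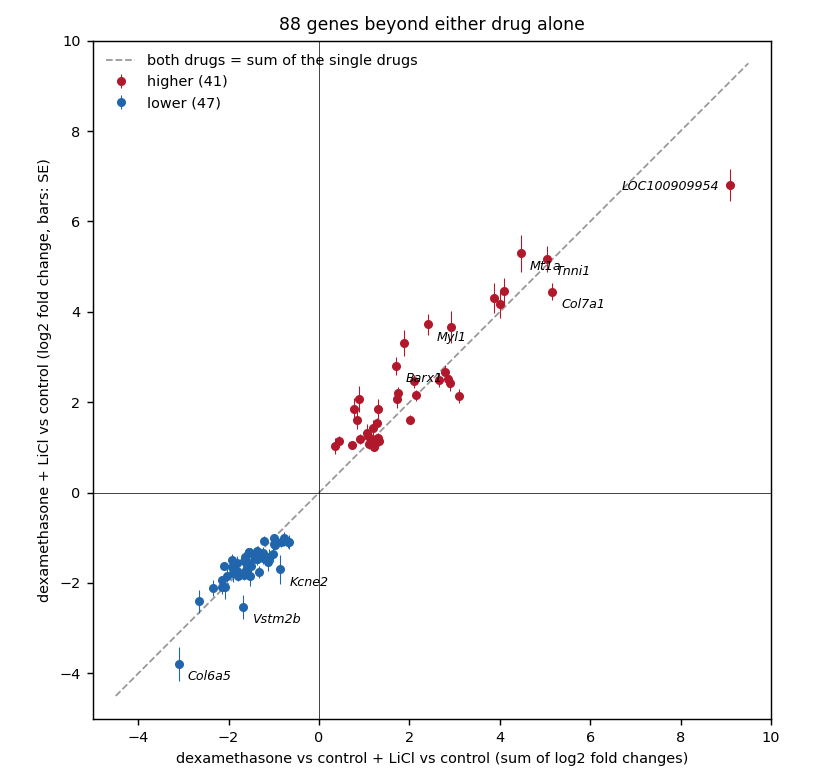
For the 88 genes beyond either drug alone, the log2 fold change with dexamethasone + LiCl against control (vertical, bars are the SE) is set against the sum of the log2 fold changes of the single drugs (horizontal), with the 41 higher genes in red, the 47 lower in blue and a dashed line where both are equal. Barx1 (2.81 against 1.71) and Myl1 (3.73 against 2.41) lie above the line and LOC100909954 (6.81 against 9.10) below it. LOC100909954 was at 0.270, 0 and 0.151 CPM in control, so its values rest on few control counts. The edgeR interaction did not pass for Barx1, Myl1 or LOC100909954 (adjusted p = 0.533, 0.734 and 0.349).

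The test of the difference from the sum, the interaction of the drugs, passed for 1 of 12602 genes (0.00794%) at an adjusted p under 0.05. At an unadjusted p under 0.05 it gave 705 genes, of which 103 were among the 551 called, and DESeq2 gave 16 called genes at an adjusted p under 0.05. The called genes were chosen by values that also enter the interaction, so the 103 are a description. The 1 gene that passed was Hif3a, a member of the hypoxia-inducible factor family. It was at 22.3, 14.3 and 24.0 CPM in control, 191, 173 and 187 with dexamethasone, 36.8, 45.8 and 48.1 with LiCl and 147, 140 and 154 CPM with both drugs. Each drug alone raised it, and with both it lay under the dexamethasone libraries by a difference that did not pass (log2 -0.32, SE 0.13, adjusted p = 0.157). Its interaction was -1.41 (SE 0.19, adjusted p = 0.0334). The number of called genes whose interaction passed was 0 to 2 with 1 library left out, 0 in 8 of the 12 fits.
The called genes next in order had interactions that did not pass, and in Pla2r1, Cxcr4 and Sox7 the level with both drugs lay between those of the single drugs. The phospholipase receptor gene Pla2r1 was at 6.14 ± 1.58, 34.1 ± 0.800, 8.26 ± 1.58 and 20.4 ± 1.08 CPM in control, with dexamethasone, with LiCl and with both. In the other direction, Cxcr4, the receptor of the chemokine Cxcl12, was at 24.1, 29.3 and 24.3 CPM in control, 6.31, 6.38 and 5.49 with dexamethasone, 23.7, 24.7 and 25.1 with LiCl and 11.6, 11.4 and 10.3 CPM with both, without overlap between dexamethasone and both (log2 0.86, SE 0.13, adjusted p = 7.2e-04). Sox7, a transcription factor of vessel cells, went from 5.19 ± 0.588 CPM in control to 0.393 ± 0.329 with dexamethasone and 2.19 ± 0.380 CPM with both, with 5.70 ± 0.780 CPM with LiCl. For Per1, Spock2 and Ctcfl, which each single drug raised, the difference between both drugs and dexamethasone did not pass (adjusted p = 0.797, 0.581 and 0.435). Per1 stood at 164 ± 6.50 CPM with dexamethasone and 169 ± 9.60 CPM with both, with 54.7 ± 6.74 CPM with LiCl and 34.9 ± 1.38 CPM in control.

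Where the single drugs pulled a gene in opposite directions, the value with both mostly lay between them. At an adjusted p under 0.05 in each, 79 genes (0.627% of those tested, 132 with the replicate block) moved one way with dexamethasone and the other with LiCl, and in 76 of them the value with both drugs lay between the single-drug values. These numbers rest partly on single libraries, with 50 genes without LiCl replicate 1 and 45 without LiCl replicate 3. The rule puts the single-drug values on either side of control, so their sum lies between them, and so does control itself. The comparisons also share the control libraries, so the 76 are a description with no test. Of the 55 genes up with dexamethasone and down with LiCl, 17 were higher and 5 lower than control with both drugs, and 33 did not pass. Of the 24 down with dexamethasone and up with LiCl, 9 were higher, 1 was lower and 14 did not pass.
Tppp3, which bundles microtubules, stood near its LiCl level. It was at 1.31, 2.32 and 1.46 CPM in control, 0.621, 0.755 and 0.897 with dexamethasone, 14.8, 12.9 and 16.9 with LiCl and 14.4, 13.4 and 13.0 CPM with both (log2 3.07 against control, SE 0.20, adjusted p = 3.5e-08). Cytl1, a cytokine-like protein of chondrocytes, was nearer dexamethasone, at 38.2, 54.2 and 36.0 CPM in control, 171, 172 and 88.9 with dexamethasone, 12.3, 14.1 and 9.98 with LiCl and 150, 140 and 66.9 CPM with both. Its libraries numbered 3 were the lowest in both conditions with dexamethasone. For LOC689991 the drugs offset each other, with 10.8 ± 3.82 CPM in control, 36.7 ± 4.99 with dexamethasone, 2.95 ± 0.683 with LiCl and 9.90 ± 1.71 CPM with both (log2 -0.18 against control, SE 0.22, adjusted p = 0.612). RGD1311892 was likewise at 3.63 ± 0.356 CPM in control and 4.23 ± 1.47 CPM with both, between 1.64 ± 0.449 CPM with dexamethasone and 10.0 ± 1.73 CPM with LiCl. The iron carrier gene Tf varied most, at 18.1, 8.98 and 39.8 CPM with dexamethasone and 3.72, 3.19 and 9.93 CPM with both, against 2.25, 3.06 and 3.12 CPM in control and 0.286, 0.525 and 0.484 CPM with LiCl. Its change against control was 1.08 with both (SE 0.50, adjusted p = 0.139) and passed with the replicate block (adjusted p = 0.0362).

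**Figure D4:**
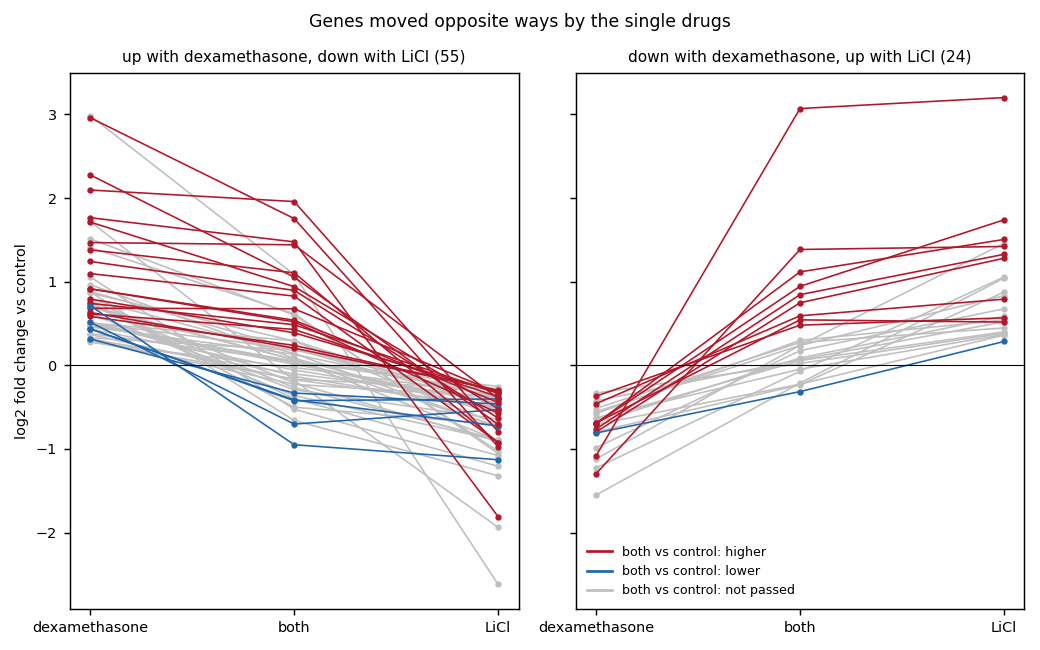
Log2 fold changes against control of the 79 genes moved opposite ways by the single drugs, 55 up with dexamethasone (left) and 24 down (right), with a line per gene from dexamethasone through both drugs to LiCl. Red lines were higher and blue lines lower than control with both drugs at an adjusted p under 0.05, and grey lines did not pass (33 and 14 genes).

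Several of the largest changes outside these groups lay near the level of a single drug. Among the largest rises, Cd101, an immunoglobulin-like surface protein, was at 0.494 ± 0.184 CPM in control, 25.0 ± 1.87 with dexamethasone, 0.519 ± 0.331 with LiCl and 18.4 ± 1.33 CPM with both, and Phactr3, a regulator of phosphatase 1 and actin, at 0.386 ± 0.327, 5.50 ± 0.968, 0.307 ± 0.0813 and 5.33 ± 0.552 CPM. The hormone receptor gene Gipr was uneven, at 0.450, 0.186 and 0.605 CPM in control, 1.35, 5.71 and 0.448 with dexamethasone and 6.45, 11.1 and 4.50 CPM with both. Replicate 2 was the highest in each condition with dexamethasone, and the difference between both drugs and dexamethasone did not pass (log2 1.45, SE 0.53, adjusted p = 0.11).
Among the largest falls, Sphkap, an anchor protein of protein kinase A, followed LiCl, at 6.37 ± 0.509 CPM in control, 6.36 ± 0.545 with dexamethasone, 0.548 ± 0.199 with LiCl and 0.601 ± 0.113 CPM with both. The glycerol phosphate dehydrogenase gene Gpd1 was at 7.35 ± 2.88, 1.51 ± 0.399, 0.479 ± 0.196 and 0.625 ± 0.321 CPM in that order. Aplnr, the receptor of the vascular peptide apelin, was at 4.23, 5.20 and 4.43 CPM in control, 1.14, 1.01 and 3.25 with dexamethasone, 0.214, 0.367 and 0.969 with LiCl and 0.109, 0 and 0.0584 CPM with both. At these few counts no fold is given, and the difference from LiCl alone did not pass (adjusted p = 0.0834). Cbln1, a secreted synapse organizer, fell from 8.90 ± 1.09 to 0.702 ± 0.0631 CPM, with 1.35 ± 0.486 CPM with dexamethasone and 2.99 ± 0.694 CPM with LiCl.
By counts, which are not corrected for gene length, the collagen VI genes held the most reads of the called genes. Col6a3, Col6a1 and Col6a2, the chains of its usual trimer, were at 1854 ± 297, 1458 ± 83.1 and 1063 ± 60.3 CPM in control and at 5179 ± 587, 3222 ± 122 and 2427 ± 81.8 CPM with both drugs. Their log2 fold changes were 1.48 (SE 0.14), 1.14 (SE 0.09) and 1.19 (SE 0.09), with Col6a2 alone of the 3 beyond either drug. Postn (periostin), at 590 ± 127 CPM in control and 1223 ± 189 CPM with both, was at 1512 ± 168 CPM with dexamethasone, from which it differed by an amount that did not pass (log2 -0.31, SE 0.14, adjusted p = 0.223).

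Counts over gene lists are given against all genes tested, of which 10.8% were higher and 11.8% lower than control at an adjusted p under 0.05, with a median log2 fold change of 0.01.

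**Figure D5:**
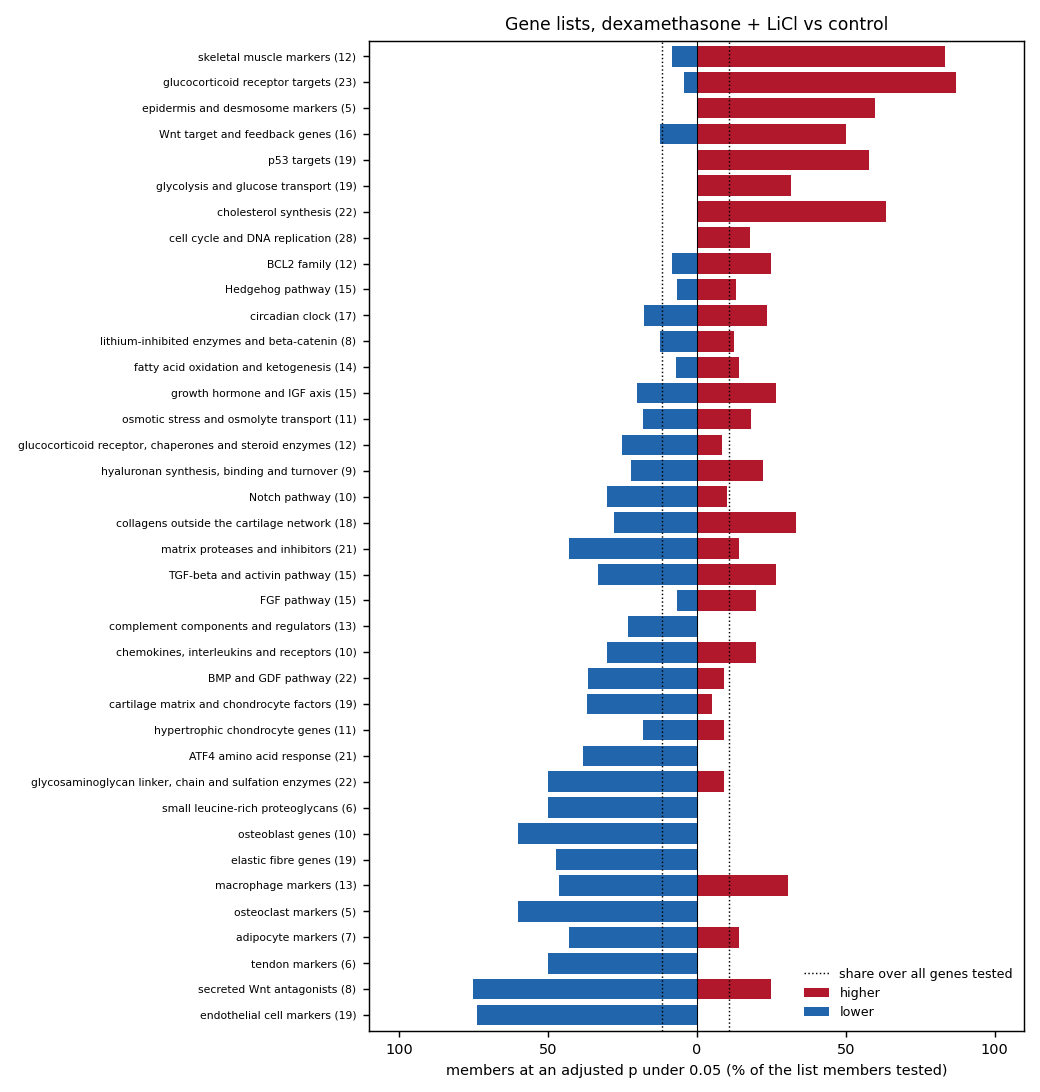
Share of the members of 38 gene lists that were higher (right, red) or lower (left, blue) with dexamethasone + LiCl against control (adjusted p under 0.05), ordered by the list's median log2 fold change, with the number tested in brackets and dotted lines at the shares over all genes (10.8% and 11.8%). Lists with fewer than 5 tested members are left out, and muscle markers (10 of 12 higher) and endothelial markers (14 of 19 lower) stand at the ends.

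Most glucocorticoid receptor targets were higher with both drugs and the receptor genes were lower. Of 23 receptor targets 20 were higher and 1 lower with both drugs, with a median of 1.24 against 1.35 with dexamethasone alone. Nr3c1, the glucocorticoid receptor itself, was at 128 ± 10.9 CPM in control and 92.1 ± 3.30 CPM with both (log2 -0.48, SE 0.08, adjusted p = 4.1e-04), with 111 ± 6.38 CPM with dexamethasone and 130 ± 5.10 CPM with LiCl. Nr3c2, the mineralocorticoid receptor, fell from 6.56 ± 1.65 to 1.80 ± 0.468 CPM, and Hsd11b2, which inactivates natural glucocorticoids, from 3.17 ± 0.366 to 0.714 ± 0.284 CPM. Of the 12 measured genes of the receptor, its chaperones and steroid enzymes, 1 was higher and 3, those just named, were lower.

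For the Wnt arm, 8 of 16 target and feedback genes were higher with both drugs, 2 were lower and 6 did not pass, with a median of 0.50 beside 0.57 with LiCl and -0.27 with dexamethasone alone. Nkd2, a feedback inhibitor, was at 19.1 ± 1.02 CPM in control, 11.8 ± 1.81 with dexamethasone, 54.4 ± 2.07 with LiCl and 41.6 ± 0.702 CPM with both. Lgr5, a receptor of R-spondins, rose with dexamethasone, at 13.1 ± 2.16 CPM in control, 52.2 ± 4.43 with dexamethasone, 11.8 ± 0.877 with LiCl and 45.8 ± 11.0 CPM with both, and LiCl alone gave -0.16 (SE 0.16, adjusted p = 0.574). Of 8 secreted antagonists 6 were lower and 2 higher, with a median of -0.87. Frzb stood near its LiCl level of 61.3 ± 3.22 CPM (61.5 ± 10.9 CPM with both, 251 ± 33.2 CPM in control), and Dkk3 fell from 165 ± 12.7 to 85.7 ± 16.5 CPM. Of 8 genes of lithium-inhibited enzymes and β-catenin 1 was higher and 1 lower. The lithium-sensitive kinase gene Gsk3b was at 122 ± 11.2 CPM in control and 120 ± 7.82 CPM with both (log2 -0.02, SE 0.09, adjusted p = 0.898). Ctnnb1, which encodes β-catenin, was at 841 ± 12.4 CPM in control and 728 ± 12.4 CPM with both (log2 -0.21, SE 0.07, adjusted p = 0.0466), a difference that missed the threshold in 14 of the alternative fits.

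Cartilage and bone genes that passed were lower in most lists. Of 19 genes of cartilage matrix and chondrocyte factors, 7 were lower and 1 higher. Chad (chondroadherin) fell from 112 ± 17.9 to 40.1 ± 2.76 CPM and Epyc (epiphycan) from 512 ± 14.7 to 313 ± 24.8 CPM, near their LiCl levels of 45.4 ± 1.63 and 302 ± 18.8 CPM. Of 11 genes of hypertrophic chondrocytes, the enlarged cells that precede bone, 1 was higher and 2 were lower. The membrane channel gene Panx3 fell from 228 ± 22.9 to 87.4 ± 15.7 CPM and the collagenase gene Mmp13 from 43.7 ± 3.01 to 20.7 ± 4.48 CPM, while Spp1 (osteopontin) rose from 79.5 ± 15.7 to 148 ± 6.80 CPM. Of 10 osteoblast genes 6 were lower and none higher, among them Phex (log2 -0.93, SE 0.20) and the collagen I gene Col1a2 (-0.90, SE 0.19). The tendon factor Scx fell from 10.5 ± 1.32 to 4.85 ± 1.20 CPM, and 3 of 6 tendon markers were lower and none higher.
Matrix lists beyond cartilage were counted in the same way. Of 19 elastic fibre genes 9 were lower and none higher, with Ltbp1, which holds latent TGF-β in the matrix, at 337 ± 29.4 CPM in control and 197 ± 2.18 CPM with both, near the LiCl level of 203 ± 4.66 CPM. Of 22 enzymes that build and sulfate glycosaminoglycan chains 11 were lower and 2 higher, with the sulfatase gene Sulf1 at 392 ± 51.7 and 250 ± 4.57 CPM. Of 21 matrix proteases and inhibitors 9 were lower and 3 higher. Among collagens outside the cartilage network the counts were even, with 6 of 18 higher and 5 lower. Of 6 small leucine-rich proteoglycans 3 were lower and none higher, among them Fmod (fibromodulin), at 1622 ± 92.8 CPM in control and 1106 ± 90.9 CPM with both. Of 9 hyaluronan genes 2 were higher and 2 lower, the hyaluronidase-related gene Cemip falling from 39.5 ± 11.4 to 16.4 ± 4.94 CPM.

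Growth factor pathways had members in both directions. Of 15 Hedgehog genes 2 were higher and 1 lower. The effector Gli1 was at 284 ± 18.1 CPM in control and 390 ± 18.7 CPM with both. Of 22 BMP and GDF genes 8 were lower and 2 higher, Bmp2 by -0.62 (SE 0.09) and its antagonist Nog by -0.62 (SE 0.10) on the log2 scale. Of 15 FGF genes 3 were higher and 1 lower, the ligand Fgf2 rising by 1.43 (SE 0.22) and the receptor Fgfr3 by 0.47 (SE 0.10). Of 15 genes of the TGF-β and activin pathway 4 were higher and 5 lower. Of 10 Notch genes 3 were lower and 1 higher, the ligand Dll4 falling from 11.7 ± 2.09 to 2.31 ± 0.629 CPM and the target Nrarp from 3.32 ± 0.681 to 0.410 ± 0.136 CPM. Of 15 genes of the growth hormone and IGF axis 4 were higher and 3 lower, with Igf2 at 9742 ± 851 CPM in control and 14200 ± 1391 CPM with both (log2 0.54, SE 0.11, adjusted p = 0.00161), Igf1 at 204 ± 22.4 and 292 ± 15.4 CPM and Igfbp2 at 17.0 ± 2.83 and 45.7 ± 9.98 CPM.

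Most p53 targets and cholesterol synthesis genes were higher, beside 10.8% of all genes higher and 11.8% lower. In the cell cycle, BCL2 family, glycolysis and fatty acid oxidation lists most members did not pass (23 of 28, 8 of 12, 13 of 19 and 11 of 14). Of 28 genes of the cell cycle and DNA replication 5 were higher and none lower, among them E2f1, a transcription factor of S phase (log2 0.66, SE 0.14, adjusted p = 0.0031). Pcna, the replication clamp, was at 80.3 ± 5.96 CPM in control and 96.3 ± 6.45 CPM with both (log2 0.26, SE 0.08, adjusted p = 0.0302), and this missed the threshold in 6 alternative fits. Of 19 p53 targets 11 were higher and none lower, with a median of 0.43 beside 0.13 with dexamethasone and 0.22 with LiCl. The cell cycle inhibitor gene Cdkn1a was at 76.7 ± 2.09 CPM in control, 98.2 ± 21.1 with dexamethasone, 138 ± 8.65 with LiCl and 181 ± 7.92 CPM with both, and the p53 targets Aen and Zmat3 had log2 fold changes of 1.21 (SE 0.12) and 1.02 (SE 0.10). Of 12 BCL2 family genes 3 were higher and 1 lower. Bcl2, which restrains cell death, was at 19.4 ± 6.12 CPM in control and 21.5 ± 2.28 CPM with both (adjusted p = 0.628), and Bak1, which promotes it, was at 27.6 ± 3.70 and 39.0 ± 2.54 CPM (log2 0.51, SE 0.10, adjusted p = 0.00182).
In cholesterol synthesis 14 of 22 genes were higher and none lower, none of them over 2-fold, with a median of 0.36 beside 0.06 with dexamethasone and 0.14 with LiCl. Sqle, the squalene epoxidase, was at 59.1 ± 2.92 CPM in control, 61.0 ± 4.05 with dexamethasone, 72.7 ± 4.23 with LiCl and 93.4 ± 7.58 CPM with both, and Fdft1, the squalene synthase, at 66.2 ± 1.29, 82.2 ± 7.32, 80.7 ± 3.67 and 99.4 ± 5.10 CPM. The summed level of all 23 listed genes was 1300 to 1330 CPM in control, 1390 to 1480 with dexamethasone, 1450 to 1550 with LiCl and 1710 to 1740 CPM with both. In this sum the libraries with both drugs lay above all others while those of the single drugs overlapped. Of 19 glycolysis genes 6 were higher and none lower, with Pfkp, a phosphofructokinase, at 29.6 ± 0.281 CPM in control, 30.3 ± 10.6 with dexamethasone, 76.6 ± 12.9 with LiCl and 86.7 ± 13.0 CPM with both. Of 14 genes of fatty acid oxidation and ketogenesis 2 were higher and 1 lower. Of 21 genes of the ATF4 amino acid response 8 were lower and none higher, with Asns (asparagine synthetase) at 162 ± 14.9 CPM in control and 108 ± 13.0 CPM with both.
Among 11 genes of the osmotic response 2 were higher and 2 lower. Slc6a12, a transporter that takes up betaine in salt-stressed cells, stood at 0.810, 0.279 and 1.06 CPM in control, 0.931, 0.923 and 0.336 with dexamethasone, 8.93, 7.71 and 7.80 with LiCl and 6.56, 5.75 and 5.78 CPM with both. It followed LiCl, and the difference from LiCl alone did not pass (log2 -0.44, SE 0.22, adjusted p = 0.368). Of 17 clock genes 4 were higher and 3 lower, Per3 falling from 87.8 ± 10.2 to 42.0 ± 7.03 CPM.

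Markers of other cell types that the pools can hold moved too. Of 19 endothelial markers tested 14 were lower and none higher. The summed level of all 21 listed was 235 to 245 CPM with both drugs, 218 to 229 with dexamethasone, 366 to 412 with LiCl and 411 to 458 CPM in control. Of 13 macrophage markers 4 were higher and 6 lower. Cd163, a scavenger receptor that glucocorticoids raise, was at 0.0450, 0 and 0 CPM in control, 15.4, 17.9 and 12.4 with dexamethasone, 0.286, 0.105 and 0.0484 with LiCl and 8.63, 11.6 and 7.77 CPM with both. Of 5 measured osteoclast markers 3 were lower and none higher, among them Acp5, the tartrate-resistant acid phosphatase, at 18.6 ± 1.51 CPM in control and 5.66 ± 1.31 CPM with both. Of 7 adipocyte markers 1 was higher and 3 lower. The adipokine gene Adipoq, at 5.00, 6.87 and 2.42 CPM in control, was at 0, 0.0912 and 0 CPM with both, too few counts for a fold, and at 0.104, 1.18 and 0.448 CPM with dexamethasone. With LiCl alone it was already at 0.0715, 0 and 0 CPM, and the difference between both drugs and LiCl did not pass (adjusted p = 0.968).
Of 5 measured epidermal and desmosome markers 3 were higher and none lower. Perp, a desmosome protein, was at 0.900, 0.371 and 0.655 CPM in control, 11.1, 9.48 and 11.0 with dexamethasone, 0.929, 0.367 and 0.387 with LiCl and 3.17, 4.20 and 3.74 CPM with both, lower with both than with dexamethasone (log2 -1.49, SE 0.24, adjusted p = 0.00112). The keratins of epidermis were absent or nearly so, with Krt5 at 0 counts in all control and dexamethasone + LiCl libraries and Krt14 at 0 except 1 count in dexamethasone + LiCl replicate 1. Of the 2 measured erythroid markers the hemoglobin gene Hba1 was higher, at 113 ± 6.01 CPM in control and 163 ± 16.0 CPM with both (log2 0.53, SE 0.11, adjusted p = 0.00311), and Hbb was at 38.7 ± 3.32 and 51.6 ± 3.48 CPM (adjusted p = 0.125, or 0.0284 with the replicate block). Of 13 complement genes 3 were lower and none higher, and of 10 chemokine and interleukin genes 2 were higher and 3 lower, Il1r1 rising by 1.20 (SE 0.09) and Cxcl12 falling by 0.98 (SE 0.11) on the log2 scale. The part of a changed mix of cells in the other results was not tested.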

How the data were processed

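RNA of 12 libraries was read from the deposited counts per gene symbol, which are whole numbers and not normalised. Per the labels and the study's methods, the authors made strand-specific libraries, aligned reads with Subread, removed duplicates with Picard, counted genes with HTSeq and merged technical replicates. The genome build in the labels is a human one although the libraries are from rat, so the build is unsettled and no gene coordinates are taken from the files. The strand setting of the counting is not given in the sources used here, so overlapping antisense genes may share reads, and near-identical copies may be split. A series-wide table with these counts was not used.

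Genes that reached 60 counts in 2 or more of 12 libraries were fitted in edgeR (version 4.0.16, R version 4.3.3) with TMM scaling, condition as the term, all 12 libraries and the two-sided quasi-likelihood test, with Benjamini-Hochberg adjustment over all genes kept. The study's methods used DESeq2 for the test, which was run as an alternative (version 1.42.0). The fit was tested on simulated data. Tables and plots were made with pandas (version 2.3.3) and matplotlib (version 3.10.9). The study's methods name 3 consequent experiments but do not tie the replicate numbers to them. Deviations from the group mean correlated at 0.133 to 0.294 between control and dexamethasone + LiCl libraries of one number and at -0.198 to 0.00447 otherwise, so the numbers were taken to pair these libraries from the data. The main fit did not use this pairing, and the replicate block did. For control and dexamethasone libraries of one number the correlations were 0.0273 to 0.17.

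The genes named were called genes whose libraries did not overlap (the 15 that rose most and the 15 that fell most), the 12 higher and 12 lower genes farthest from both single drugs, the 8 called genes with the smallest interaction p, 6 genes moved opposite ways, the 10 called genes with most counts, up to 3 members of each of 41 lists, and a few genes of the study's stainings. Counts of genes under the filter, and the CArG box, were chosen after their values were seen. The genes compared, the lists and the rules were chosen with earlier results of these data known. Alternatives were another scaling, DESeq2, other count and fold filters, the replicate number as a term, the compared groups alone, thinning to the smallest library, and leaving out each library. Some genes that these rules name are not reported here.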

Additional observations from a re-analysis of the deposited data

Results flagged for a closer look

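Hif3a was the 1 gene for which the effect of dexamethasone differed with and without LiCl by a test of the difference itself. Its interaction was -1.406 on the log2 scale (SE 0.19, edgeR adjusted p = 0.0334). Without LiCl, dexamethasone took its mean from 20.2 to 183 CPM (log2 3.15, SE 0.15), and with LiCl from 43.6 to 147 CPM (log2 1.75, SE 0.14). The call was not stable. With 1 library left out, the number of called genes whose interaction passed was 0 in 8 of 12 fits, and it was 16 with DESeq2, 24 with no count filter and 2 with the replicate block.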

How the results depend on the processing

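The count of 551 called genes (286 higher, 265 lower) was 927 (512 and 415) with the filter of edgeR's filterByExpr, 1080 (592 and 488) with no count filter, 197 (118 and 79) with the fold limit inside the test and 2848 (1365 and 1483) with no fold minimum. The filters changed how many genes were tested, and otherwise the cause was not tested. It was 529 to 582 with 1 library left out, 270 to 321 higher and 254 to 290 lower. The 88 genes beyond either drug became 133 (71 higher) with no count filter, 142 (62 higher, 80 lower) with no fold minimum and 21 (15 higher, 6 lower) with the fold limit in all 3 comparisons. With 1 library left out they were 60 to 105 (30 to 46 higher, 29 to 62 lower). With the replicate block, which uses the pairing of the libraries, they were 123 (62 higher), the interaction passed for 2 called genes and 132 genes moved opposite ways. The block kept 541 of the 551 calls and 87 of the 88. It brought Tf, Hbb and Kif19 under an adjusted p of 0.05 against control (adjusted p = 0.0362, 0.0284 and 0.045). Their log2 fold changes there were 0.988, 0.412 and 0.645, under 2-fold, so they were not called. No other named gene changed its side of the threshold. The interaction among called genes passed for 16 with DESeq2, 24 with no count filter and 0 to 2 with 1 library left out. The 79 genes moved opposite ways were 52 with libraries thinned to the smallest and 45 to 82 with 1 library left out. Over 183 named genes and 19 settings, 3344 of 3452 values kept their side of the threshold and none reversed.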
